A study of Mus musculus with 33 samples.

Results

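Leukocytes and blood stem cells leave the blood through a chain of contacts with the vessel wall, and 7 genes that encode molecules of that chain were followed across mouse bone marrow cell populations. They are Sele, Selp, Vcam1, Icam1, Icam2 and Madcam1, which encode adhesion molecules of the vessel side, and Selplg, which encodes PSGL-1, a selectin ligand of the blood cell side. The genes were chosen by name, with earlier results of these data known, and all 7 were found among the 38899 gene names that the 4 expression tables share. RNA was sequenced from 33 libraries of adult C57BL/6 mice of 8 to 12 weeks of age, with 3 libraries in each of 11 groups.

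Irradiated bone EC (endothelial cells) and bone EC were GFP+ cells from the femur and tibia of Cdh5-mTnG mice, whose reporter is tied to the endothelial gene Cdh5, after 9 Gy irradiation or without treatment. Vav1 DTX EC and Vav1 control EC were also GFP+ cells. The labels of both groups give diphtheria toxin as treatment and Vav1-Cre R26-DTR Cdh5-mTnG as genotype, so that only titles and column names separate them. Titles read DTX and ctrl, and column names read Vav1-Cre and Vav1-Cont. Whether the controls carried Cre or received toxin thus cannot be settled from these. Vav1 is a gene of blood cells, and R26-DTR is a diphtheria toxin receptor allele. Apln+ EC were GFP+ cells of tamoxifen-treated Apln-CreERT2 R26-mTmG mice, in which cells that express Apln are marked, and diaphysis EC were GFP+ cells of the femoral shaft of untreated Cdh5-mTnG mice. The 9Gy1D EC were Tomato+/GFP+ bone marrow cells of Cdh5-mTnG mice given 9 Gy, and Esm1+ EC were Tomato+/GFP+ bone marrow cells of Esm1-CreER R26-mTmG mice given tamoxifen. LSK (Lin-Sca1+cKit+ cells, which hold the blood stem cells), Lin- (lineage-negative cells) and BMC (whole bone marrow cells) came from the femur and tibia of untreated wildtype mice. The labels give no time after irradiation, and they do not say whether replicates came from separate animals or pools, so p-values measure the spread between these libraries, which may be technical.

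E-selectin (Sele) and P-selectin (Selp) are the endothelial lectins that slow passing blood cells into rolling, and PSGL-1 (Selplg) on the rolling cell is their best known partner. VCAM-1 (Vcam1) then holds cells that carry the integrin VLA-4, ICAM-1 (Icam1) and ICAM-2 (Icam2) hold cells that carry LFA-1, and MAdCAM-1 (Madcam1) is the ligand of the integrin of Itga4 and Itgb7 and is best known from venules of the gut wall. In bone marrow the sinusoids make both endothelial selectins and VCAM-1 without inflammation, and homing of transplanted stem cells uses them. Inflammatory signals such as TNF raise transcription of Sele, Selp, Vcam1 and Icam1 in mouse endothelium, whereas Icam2 is made by resting endothelium.

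Libraries held 1.55 to 12.29 M reads behind the deposited FPKM values (reads scaled to gene length and library depth), the fewest in LSK and the most in Vav1 DTX EC. All sorted endothelial groups held the 18 pan-endothelial marker genes, at a summed level of 1217 to 7659 FPKM per library against 35.7 to 147 FPKM in the 3 blood groups. They also held blood cell transcripts: the 16 neutrophil genes summed to 1052 to 4628 FPKM in irradiated bone EC, 48740 to 48980 FPKM in bone EC and up to 147800 FPKM in Apln+ EC replicate 1. The 12 erythroid genes found (of 13 listed) summed to 454 to 1129 FPKM in irradiated bone EC, against 42790 to 46440 FPKM in bone EC, and to 1789 to 3401 FPKM in Vav1 DTX EC, against 45240 to 85030 FPKM in Vav1 control EC. In the other endothelial groups they summed to 20400 to 67800 FPKM, and the part of this difference in the results was not tested. Within their groups, Vav1 DTX EC replicate 2, Apln+ EC replicate 1 and Lin- replicate 3 stood apart from the other 2 libraries. Esm1+ EC replicates 1 and 2 were closer to each other than any other pair, with a chi-square per degree of freedom of 1.39 between their reads where no other pair of replicates was below 3.13. Groups of different tables were normalized separately, so levels were tested only within a table, and levels set side by side across tables are a description.

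Sele and Selp lie beside each other on chromosome 1 of GRCm38, at 164048234 to 164057677 and at 164115264 to 164150026, both on the plus strand. Icam1 lies on chromosome 9 at 21015985 to 21028817 and Madcam1 on chromosome 10 at 79664559 to 79668537, both on the plus strand. Vcam1 lies on chromosome 3 at 116109949 to 116129688, Icam2 on chromosome 11 at 106377656 to 106388075 and Selplg on chromosome 5 at 113818536 to 113832644, all on the minus strand. All 7 are protein-coding genes in GENCODE vM21, and values are summed over the exons of each gene. Of the exon bases, 14.14% in Selp, 11.72% in Icam1 and 0.688% in Vcam1 overlap an antisense or long noncoding gene, whose reads cannot be told apart from theirs in the libraries prepared without strand. The gene length behind the deposited values was smaller than the GENCODE vM21 exon length by 2.61 times for Vcam1, 1.72 times for Icam1 and 1.64 times for Selplg, so an order between these genes and the others depends on the lengths used.

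The promoters of the 4 members matched in the RefSeq promoter table (GRCm38.p6) are shown. Vcam1, Icam2 and Selplg had no matched entry there. Each sequence is the 250 bases before the RefSeq start, 5′ to 3′ on the strand of the gene, and capitals mark every match to a searched motif. The motifs were the kappaB consensus of NF-kappaB, the STAT element GAS (TTCNNNGAA) and an IRF element (GAAA repeated after 2 free bases), each on both strands, and the TATA box (TATAAA) on the strand of the gene.
Sele (chr1:164047984-164048233, plus strand): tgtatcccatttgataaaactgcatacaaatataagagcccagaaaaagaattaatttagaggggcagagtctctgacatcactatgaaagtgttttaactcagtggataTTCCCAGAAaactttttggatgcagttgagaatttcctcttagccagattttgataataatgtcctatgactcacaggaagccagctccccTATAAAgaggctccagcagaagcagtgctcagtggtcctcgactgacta
Selp (chr1:164115014-164115263, plus strand): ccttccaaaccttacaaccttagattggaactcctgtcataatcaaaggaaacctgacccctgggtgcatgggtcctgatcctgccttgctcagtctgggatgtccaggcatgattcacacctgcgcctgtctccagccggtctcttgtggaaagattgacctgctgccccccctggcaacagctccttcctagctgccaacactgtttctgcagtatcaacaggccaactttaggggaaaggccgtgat
Icam1 (chr9:21015690-21015939, plus strand): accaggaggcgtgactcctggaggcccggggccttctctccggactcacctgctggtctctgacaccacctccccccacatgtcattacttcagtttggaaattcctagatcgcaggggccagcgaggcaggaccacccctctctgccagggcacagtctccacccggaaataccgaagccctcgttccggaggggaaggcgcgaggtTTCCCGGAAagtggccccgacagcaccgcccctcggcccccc
Madcam1 (chr10:79664309-79664558, plus strand): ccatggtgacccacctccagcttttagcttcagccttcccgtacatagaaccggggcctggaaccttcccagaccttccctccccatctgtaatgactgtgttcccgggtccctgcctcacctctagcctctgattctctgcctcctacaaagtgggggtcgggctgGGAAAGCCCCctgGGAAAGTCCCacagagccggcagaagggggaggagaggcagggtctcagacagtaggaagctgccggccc
The Sele window held a GAS match with its first base at -140 and a TATA box at -49, counted back from the start. The Icam1 window held a GAS match at -42, and the Madcam1 window held a pair of kappaB matches at -83 and -70, both read from the opposite strand and not overlapping. The Selp window held none of these letters, and no window held the IRF element. Among 32851 RefSeq promoter windows of the same length, 7.25% held the kappaB consensus, 7.02% GAS, 2.98% the IRF element and 7.59% the TATA box. A match is a description of letters and says nothing of binding.

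The 6 vessel-side genes spanned a wide range, and each had its own order of groups. Sele averaged most in irradiated bone EC (128 ± 42.5 FPKM, SD, n = 3 here and below) and least in BMC (0.0764 ± 0.075 FPKM). Vcam1 averaged 1031 ± 176 FPKM in irradiated bone EC, the highest level of any member in any group, and 2.06 ± 0.223 FPKM in LSK. Icam2, the gene of resting endothelium, led in Apln+ EC (234 ± 134 FPKM) and was between 13.9 and 15.1 FPKM on average in the 3 blood groups.

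**Figure D1:**
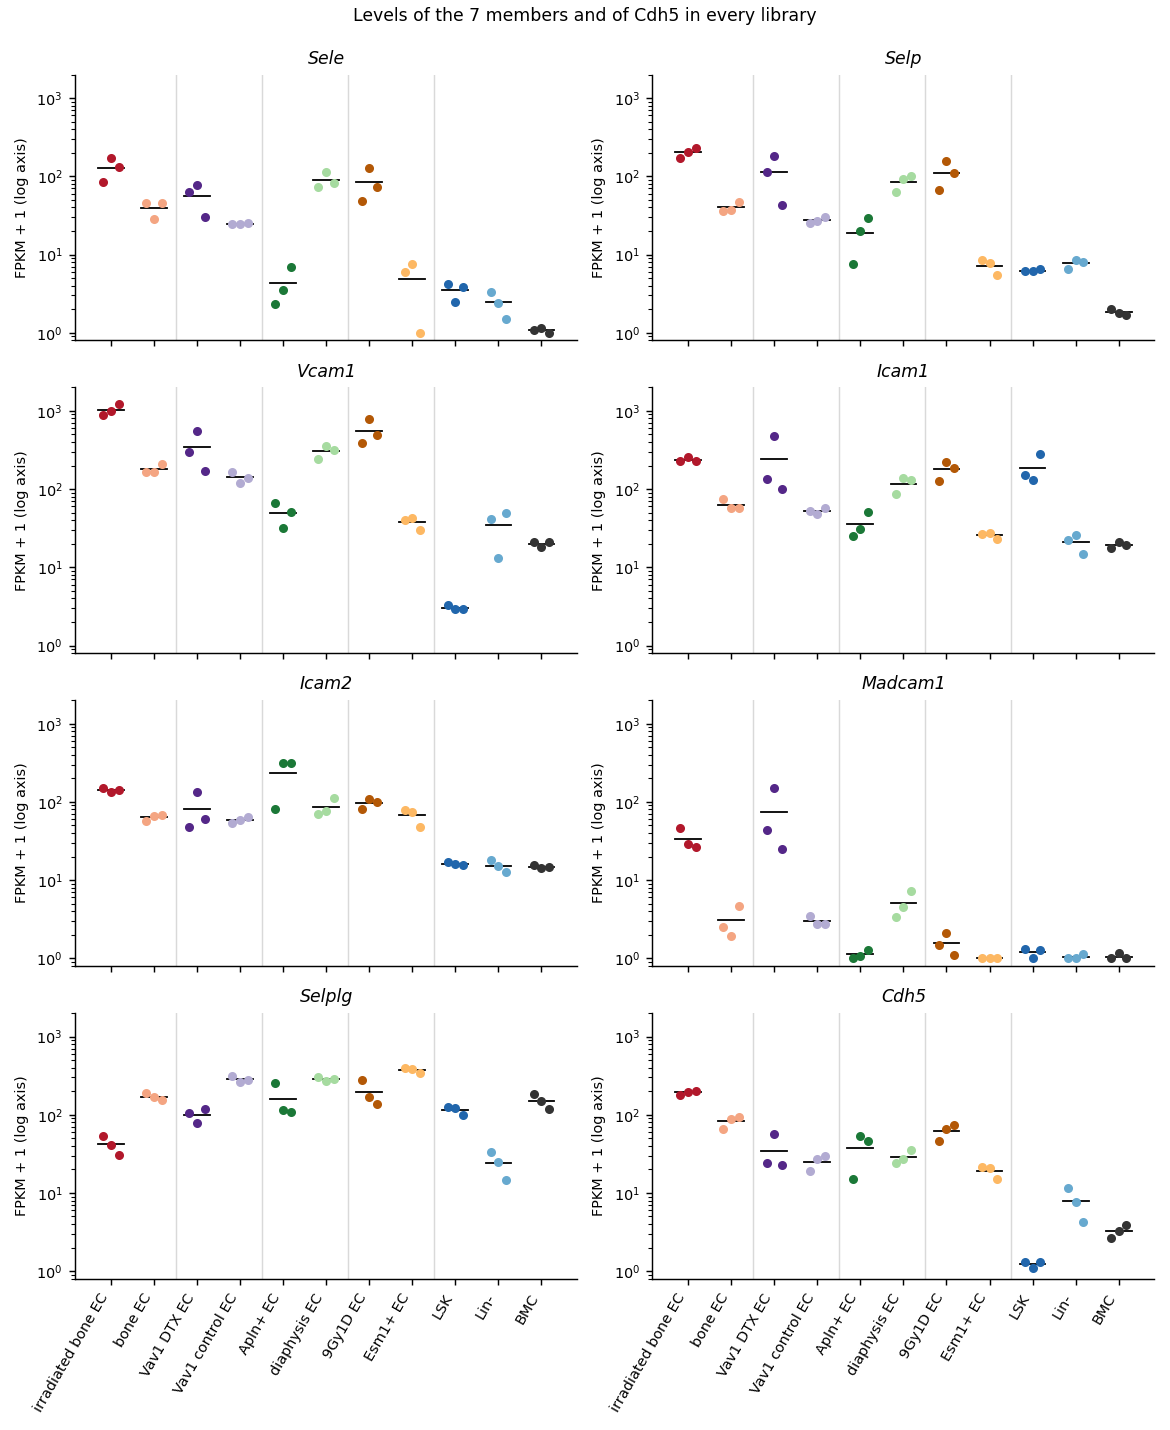
FPKM + 1 on a log axis for the 7 genes and Cdh5 in each of the 33 libraries (points; bars are means of 3 libraries), grouped by deposited comparison, with grey lines between tables or kinds of group. Sele, Selp and Vcam1 are low in Apln+ EC and Esm1+ EC, Madcam1 is above 20 FPKM only in irradiated bone EC and Vav1 DTX EC, and Selplg is lowest in Lin- and irradiated bone EC.

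Neighbours in these orders often overlapped. Of the 10 neighbouring pairs of groups, library ranges overlapped in 7 for Sele and for Selp, in 6 for Vcam1, in 9 for Icam1 and in 8 each for Icam2, Madcam1 and Selplg. For Sele the order ran from irradiated bone EC through diaphysis EC, 9Gy1D EC and Vav1 DTX EC to bone EC with every neighbour overlapping, and a clear step separated Vav1 control EC (23.6 to 24.1 FPKM) from Esm1+ EC (0 to 6.51 FPKM). For Icam1, Vav1 DTX EC (238 ± 212 FPKM), irradiated bone EC (238 ± 18.1 FPKM), LSK (186 ± 79.5 FPKM) and 9Gy1D EC (178 ± 48.6 FPKM) overlapped as the 4 highest groups. Madcam1 had at least 1 FPKM in 15 of 33 libraries, and the others were at that level in 28 (Sele), 30 (Selp) or all 33.

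The first comparison, of irradiated bone EC with bone EC, addresses the vessel-side molecules after 9 Gy. All 6 vessel-side genes rose and Selplg fell, so that 7 of 7 members passed the test (limma, adjusted p below 0.05), except that with libraries scaled to their mean pan-endothelial level Icam2 turned to -0.41 (adjusted p = 0.1) and Sele (0.11, adjusted p = 0.72) and Icam1 (0.35, adjusted p = 0.22) were not called. Over all genes tested, 22.5% were called higher and 19.4% lower. Madcam1 rose most, at 16.1 times its level in bone EC, followed by Vcam1 (5.72 times), Selp (5.16 times), Icam1 (3.83 times), Sele (3.31 times) and Icam2 (2.25 times). In bulk samples such as these, fewer cells of a type and less RNA per cell cannot be told apart.

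Sele was at 84.2, 169 and 129.9 FPKM in irradiated bone EC, against 44.2, 27.1 and 44.6 FPKM in bone EC. The lowest irradiated library was above every untreated one, and the difference was 1.68 ± 0.30 (log2, SE; limma, adjusted p = 0.004). Selp was at 171, 205 and 226 FPKM in irradiated bone EC, against 34.7, 35.8 and 46.3 FPKM in bone EC. These groups stood far apart relative to their spread, with a difference of 2.34 ± 0.17 (adjusted p = 0.00024). P-selectin is also a platelet protein, and the 9 megakaryocyte and platelet genes summed to 19.6 to 57.4 FPKM in irradiated bone EC, against 114 to 171 FPKM in bone EC. Their list includes Vwf, which is a gene of endothelial granules as well. The platelet gene Pf4 was at 27.8 ± 22.3 FPKM in irradiated bone EC and 76.8 ± 22.7 FPKM in bone EC. The ratio of Selp to Pf4 was 3.21 to 16.1 in irradiated bone EC and 0.4499 to 0.568 in bone EC. The part of platelet transcripts in the Selp difference was not tested.

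Vcam1 was at 882, 987 and 1224 FPKM in irradiated bone EC, against 165, 166 and 209.7 FPKM in bone EC. Every irradiated library held more than 4 times the Vcam1 of any untreated one, and the log2 difference was 2.50 ± 0.19 (limma, adjusted p = 0.00025). Macrophages and CXCL12-rich stromal cells of the marrow also make VCAM-1. The 10 monocyte and macrophage genes found (of 11 listed) summed to 522 to 970.5 FPKM in irradiated bone EC, against 1366 to 1499 FPKM in bone EC. The 10 stromal genes summed to 201 to 262 FPKM in irradiated bone EC, against 139 to 305.5 FPKM in bone EC, and these overlapped. Within the macrophage list Cd163 was at 4.68 to 6.01 FPKM in irradiated bone EC, against 1.78 to 3.35 FPKM in bone EC, and C1qa, C1qb and C1qc had higher means in irradiated bone EC with overlapping ranges. The part of these cells in the Vcam1 difference was not tested. The 8 sinusoidal genes, which include Stab2 and Flt4, summed to 967 to 1737 FPKM in irradiated bone EC and 270.2 to 364.5 FPKM in bone EC. Mrc1 is in both the sinusoidal and the macrophage list, so these sums are not separate.

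Icam1 was at 226, 258 and 229 FPKM in irradiated bone EC, against 73.0, 56.8 and 56.3 FPKM in bone EC. The groups did not overlap, and the log2 difference was 1.93 ± 0.15 (limma, adjusted p = 0.00027). Icam2 was at 149, 135 and 140.5 FPKM in irradiated bone EC, against 56.4, 64.4 and 67.7 FPKM in bone EC, a smaller difference of 1.16 ± 0.13 (adjusted p = 0.00065). Within a library, the ratio of Icam2 to Icam1 was 0.662, 0.521 and 0.615 in irradiated bone EC, against 0.773, 1.13 and 1.2 in bone EC, and did not overlap. Madcam1 was at 45.3, 27.8 and 25.8 FPKM in irradiated bone EC (251, 127 and 141 reads), against 1.54, 0.921 and 3.69 FPKM in bone EC (8, 4 and 19 reads). Madcam1 thus rested on few reads in bone EC and on more than 100 a library in irradiated bone EC, with a difference of 3.54 ± 0.36 (adjusted p = 0.00047).

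Selplg went the other way, at 52.8, 40.5 and 29.3 FPKM in irradiated bone EC, against 187, 167 and 152 FPKM in bone EC. All irradiated libraries were below all untreated ones, with a difference of -2.05 ± 0.22 (log2; limma, adjusted p = 0.00056). The 10 pan-leukocyte genes, of which Ptprc encodes CD45, summed to 709 to 1207 FPKM in irradiated bone EC, against 3041 to 3451 FPKM in bone EC. The ratio of Selplg to Ptprc was 2.56 to 2.84 in irradiated bone EC and 2.57 to 3.51 in bone EC, and these ranges overlapped. The part of leukocyte transcripts in the Selplg difference was not tested.

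Cdh5, the gene behind the reporter of these mice, was at 180.2, 194 and 200.3 FPKM in irradiated bone EC and at 64.0, 86.7 and 93.7 FPKM in bone EC, a rise of 1.24 ± 0.17 (log2; limma, adjusted p = 0.0014). With every library scaled to its own Cdh5, 4 members still rose (Selp by 1.11 ± 0.21, Vcam1 by 1.26 ± 0.22, Icam1 by 0.69 ± 0.26 and Madcam1 by 2.52 ± 0.37) and Selplg fell (-3.28 ± 0.30). On this scale 2.48% of all genes tested were called higher and 68.4% lower. The 2 members without a call were Sele (0.45 ± 0.32, adjusted p = 0.23), whose ratio to Cdh5 was 0.467 to 0.873 in irradiated bone EC and 0.312 to 0.69 in bone EC, and Icam2 (-0.08 ± 0.20, adjusted p = 0.75). The Icam1 call per Cdh5 was close to the threshold (adjusted p = 0.039) and was lost without irradiated bone EC replicate 1, 2 or 3 (0.056, 0.1 and 0.068) and without bone EC replicate 2 or 3 (0.12 and 0.15).

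**Figure D2:**
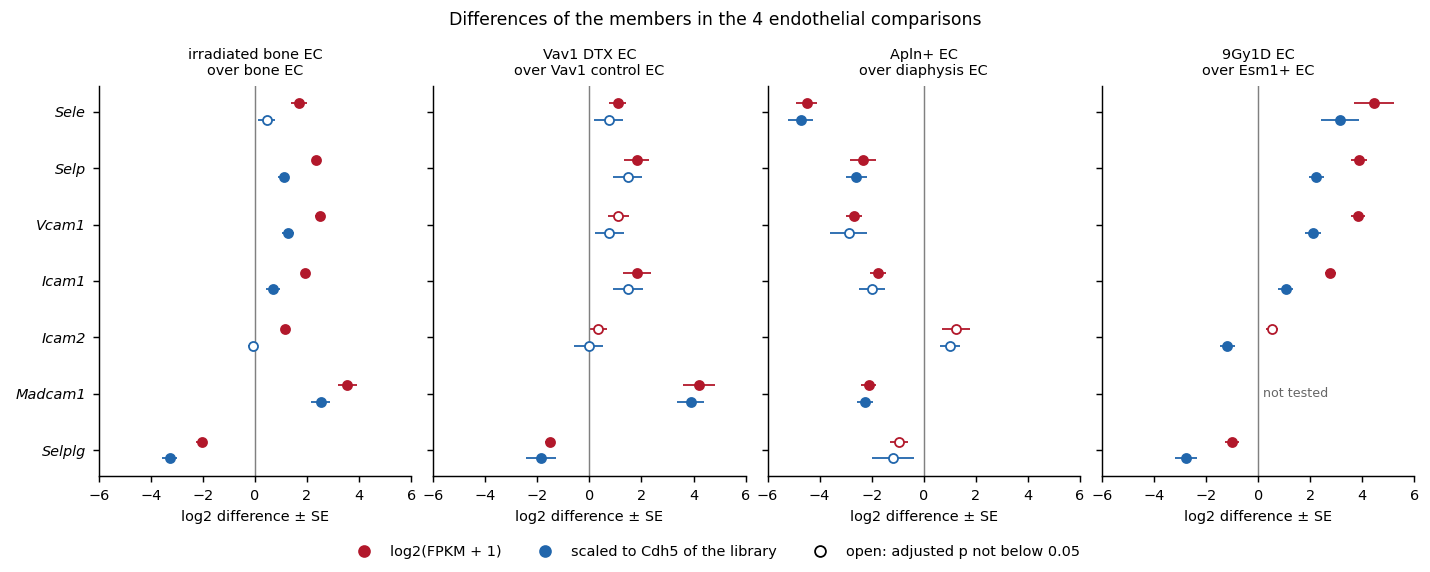
Log2 difference ± SE (limma) of each member in the 4 endothelial comparisons, on log2(FPKM + 1) in red and after scaling each library to its own Cdh5 in blue, with open circles where the adjusted p was not below 0.05. Vessel-side genes other than Icam2 lie right of 0 in irradiated bone EC, Vav1 DTX EC and 9Gy1D EC and left of 0 in Apln+ EC, with Madcam1 not tested in 9Gy1D EC, and Icam2 changes sign between the scales in irradiated bone EC (1.16 and -0.08), Vav1 DTX EC (0.32 and -0.03) and 9Gy1D EC (0.54 and -1.19).

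The partners and regulators of these molecules moved in part, where 22.5% of all genes were called higher and 19.4% lower. Of the 9 leukocyte integrin genes tested in irradiated bone EC against bone EC, 1 rose and 6 fell, with a median log2 difference of -1.66 beside 0.06 over all genes. Itgb1, the beta chain of VLA-4 that most cells make, rose (183.6 ± 36.3 FPKM in irradiated bone EC, 89.6 ± 9.53 FPKM in bone EC), and the leukocyte chains Itgb2 (38.9 ± 9.03 and 157.5 ± 37.1 FPKM) and Itgb7 (15.3 ± 2.65 and 61.3 ± 4.96 FPKM) fell. Of 16 tested genes of selectin ligand carriers and their glycosyltransferases, 6 rose and 6 fell: Chst2, a sulfotransferase of selectin ligands, rose (103 ± 21.9 and 21.8 ± 3.69 FPKM), and Cd44, a selectin ligand carrier of leukocytes, fell (5.63 ± 2.02 and 40.1 ± 6.3 FPKM).

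Of the 16 genes of NF-kappaB, IRF and STAT regulators, 7 rose and 3 fell in irradiated bone EC. Their median was 0.26 beside 0.06 over all genes, of which 22.5% were called higher and 19.4% lower. Nr2f2, a regulator of venous identity, rose by 1.59 ± 0.18 and Irf1 by 1.01 ± 0.16 (log2), and Rel, an NF-kappaB subunit of lymphoid cells, fell (-1.89 ± 0.33). Of 15 genes of TNF, IL-1 and lymphotoxin signals, 5 rose and 4 fell. The receptors Ltbr (1.07 ± 0.15), for lymphotoxin, and Ifngr1 (1.14 ± 0.14), for interferon gamma, were among those that rose, and the ligands Il1b (-3.25 ± 0.39) and Tnf (-1.27 ± 0.29) were among those that fell. Of 12 other junctional and immunoglobulin adhesion genes 7 rose and 2 fell, with Esam (1.76 ± 0.17) and F11r (1.59 ± 0.16), of endothelial junctions, in front, and Icam4, an adhesion gene of red cells, at -3.13 ± 0.20. Of 9 granule genes 4 rose and 3 fell, among them Angpt2 (2.84 ± 0.22), a gene of endothelial granules, and the platelet gene Ppbp (-4.53 ± 0.25).

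Vav1 DTX EC against Vav1 control EC compares endothelium by the titles of the 2 groups. Sele, Selp, Icam1 and Madcam1 rose, Selplg fell, and Vcam1 and Icam2 did not pass the test. Thus 5 of 7 members were called (limma), 4 higher where 11.3% of all genes were and 1 lower where 15% of all genes were. Madcam1 had the largest difference of the members, at 36.5 times its control level.

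Sele was at 61.5, 76.8 and 28.9 FPKM in Vav1 DTX EC, against 23.8, 23.6 and 24.1 FPKM in Vav1 control EC. The third Vav1 DTX library lay only just above the controls, and the log2 difference was 1.08 ± 0.33 (limma, adjusted p = 0.049). Selp was at 114, 183 and 41.4 FPKM in Vav1 DTX EC, against 24.5, 25.8 and 29.0 FPKM in Vav1 control EC. The groups did not overlap, with a difference of 1.82 ± 0.48 (adjusted p = 0.032). The megakaryocyte and platelet genes summed to 40 to 78.0 FPKM in Vav1 DTX EC and 124 to 431 FPKM in Vav1 control EC, and their part in the Selp difference was not tested.

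Vcam1 was at 294, 559 and 170.2 FPKM in Vav1 DTX EC, against 165, 120.2 and 138 FPKM in Vav1 control EC. The ranges did not overlap, but the spread within Vav1 DTX EC was wide and the difference of 1.11 ± 0.40 (log2) did not pass (limma, adjusted p = 0.08). Icam1 was at 133, 483 and 98.6 FPKM in Vav1 DTX EC, against 51.5, 46.8 and 56.7 FPKM in Vav1 control EC, a difference of 1.83 ± 0.54 (adjusted p = 0.045). Icam2 was at 47.0, 132 and 60.4 FPKM in Vav1 DTX EC, against 53.4, 57.2 and 62.6 FPKM in Vav1 control EC. These overlapped, and the difference was 0.32 ± 0.35 (adjusted p = 0.54), or -0.11 without the second Vav1 DTX library.

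Madcam1 was at 43.2, 151 and 23.6 FPKM in Vav1 DTX EC (796, 2218 and 344 reads), against 2.5, 1.72 and 1.74 FPKM in Vav1 control EC (31, 20 and 25 reads). Every Vav1 DTX library was above every control by more than 9 times, with a difference of 4.21 ± 0.60 (log2; limma, adjusted p = 0.0029). The ratio of Madcam1 to Vcam1 within a library was 0.147, 0.2696 and 0.139 in Vav1 DTX EC, against 0.0152, 0.0143 and 0.0126 in Vav1 control EC. In irradiated bone EC the same ratio was 0.021 to 0.0514, against 0.00553 to 0.0176 in bone EC.

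Selplg was at 104, 76.9 and 118 FPKM in Vav1 DTX EC, against 309.5, 262 and 277 FPKM in Vav1 control EC. All Vav1 DTX libraries were lower, by -1.51 ± 0.18 (log2; limma, adjusted p = 0.0013). The pan-leukocyte genes summed to 2690 to 4475 FPKM in Vav1 DTX EC, against 5600 to 5955 FPKM in Vav1 control EC, and the 12 B lymphoid genes to 266 to 369.5 FPKM, against 3007 to 3694 FPKM. The ratio of Selplg to Ptprc was 3.15 to 4.71 in Vav1 DTX EC and 4.5 to 4.9 in Vav1 control EC. The part of blood cell transcripts in these differences was not tested.

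Cdh5 itself was at 22.9, 56.0 and 21.8 FPKM in Vav1 DTX EC and 18.2, 25.9 and 28.5 FPKM in Vav1 control EC, and these overlapped (0.34 ± 0.37, limma, adjusted p = 0.53). Per Cdh5, Madcam1 rose (3.90 ± 0.52, adjusted p = 2.8e-11) and Selplg fell (-1.86 ± 0.56, adjusted p = 0.012), where 0.986% of all genes were called higher and 9.02% lower. Cdh5 itself, at a ratio of 1 in every library, had an SE of 0.55 on this scale. The SE thus came mostly from the spread of all genes, and these adjusted p do not measure the spread of each gene alone. Selp (1.47 ± 0.56, adjusted p = 0.08) and Icam1 (1.48 ± 0.56, adjusted p = 0.079) missed the threshold, although every Vav1 DTX library was above every control in both ratios. Sele (0.74 ± 0.55), Vcam1 (0.76 ± 0.56) and Icam2 (-0.03 ± 0.56) were not called per Cdh5 either.

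The second Vav1 DTX library was highest for every vessel-side gene. Without it the log2 differences were 0.80 for Sele (adjusted p = 0.053), 1.35 for Selp (0.024), 0.67 for Vcam1 (0.056), 1.14 for Icam1 (0.0012), 3.48 for Madcam1 (0.00014) and -1.34 for Selplg (0.00018), and per Cdh5 Selp (1.44, 0.00045) and Icam1 (1.23, 0.004) were then called and Selplg was at -1.25 (0.0026). Per Cdh5, calls over all 11664 genes also grew without it, to 773 higher and 1219 lower from 115 and 1052. The Sele call was also lost with pan-endothelial scaling (0.87, adjusted p = 0.19) and without the first Vav1 DTX library (0.14) or any control library (0.13 each). The Selp call was lost without the first Vav1 DTX library (0.095) or control library 1, 2 or 3 (0.1, 0.096 and 0.082), and that of Icam1 without the same libraries (0.07, 0.12, 0.13 and 0.11). Without the third Vav1 DTX library Vcam1 was called (1.53, 0.018), Selp was at 2.41 and per Cdh5 Selp was called (1.83, 0.048). Per Cdh5 the Selplg call was lost without control library 1, 2 or 3 (0.2, 0.095 and 0.062).

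Over all genes, 11.3% were called higher and 15% lower in Vav1 DTX EC (limma), and the list counts stand beside these shares. Among the regulators, none of the 16 NF-kappaB, IRF and STAT genes rose and 4 fell, with a median of -0.11 beside 0.03 over all genes. Irf8 fell (-1.60 ± 0.23, log2), as did Rel (-1.13 ± 0.18). Of 13 genes of TNF, IL-1 and lymphotoxin signals 1 rose and 4 fell: Tnf rose (48.7 ± 5.42 FPKM in Vav1 DTX EC, 21.1 ± 3.17 FPKM in Vav1 control EC), and Il1b fell (172 ± 82.8 and 795 ± 42.7 FPKM). Of 8 leukocyte integrin genes none rose and 4 fell, among them Itgb7 (-1.87 ± 0.23) and Itgal (-1.49 ± 0.35), which encode chains of the receptors for MAdCAM-1 and ICAM-1. Of the remaining lists, 4 of 16 genes of selectin ligands fell and none rose, 1 of 11 junctional genes rose and 1 fell, and 2 of 10 granule genes rose, Angpt2 (1.35 ± 0.29) and Cd63 (0.69 ± 0.11), where 3 fell.

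Apln+ EC against diaphysis EC sets a genetically marked subset against the endothelium of the bone shaft. Apln+ EC had less of 5 vessel-side members, with the largest log2 difference in Sele, and its mean Icam2 was above that of diaphysis EC. Of 7 members 5 fell and none rose (limma), where 4.64% of all genes were called lower and 2.84% higher. The groups differ in genotype, tamoxifen treatment and bone region as well as in Apln, and these cannot be told apart.

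Sele was at 1.36, 2.57 and 6.02 FPKM in Apln+ EC, against 72.7, 111 and 82.2 FPKM in diaphysis EC. The groups were more than 10 times apart at their closest, with a difference of -4.50 ± 0.41 (log2; limma, adjusted p = 0.0023). Selp was at 6.67, 18.9 and 28.3 FPKM in Apln+ EC, against 61.8, 91.5 and 99.2 FPKM in diaphysis EC, a smaller difference of -2.34 ± 0.49 (adjusted p = 0.04). The ratio of Selp to Sele within a library was 4.9, 7.35 and 4.7 in Apln+ EC, against 0.851, 0.823 and 1.21 in diaphysis EC. This ratio does not depend on the scaling of libraries, and it was below 2.5 in every other endothelial library in which it was formed.

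Vcam1 was at 66.2, 30.7 and 49.7 FPKM in Apln+ EC, against 243, 357 and 315 FPKM in diaphysis EC, and fell by 2.67 ± 0.31 on the log2 scale (limma, adjusted p = 0.0047). Icam1 was at 24.4, 29.6 and 50.6 FPKM in Apln+ EC, against 85.1, 136 and 129.8 FPKM in diaphysis EC, and fell by 1.76 ± 0.32 (adjusted p = 0.024). Neither overlapped between the groups. The sinusoidal genes summed to 58.2 to 129 FPKM in Apln+ EC, against 325 to 440.2 FPKM in diaphysis EC, and the stromal genes to 32.1 to 119 FPKM, against 483 to 503.5 FPKM. The part of either list in the Vcam1 difference was not tested.

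Icam2 was at 79.5, 311 and 313 FPKM in Apln+ EC, against 69.3, 74.7 and 112 FPKM in diaphysis EC. Apln+ EC replicate 1 fell within the diaphysis range, and the difference of 1.24 ± 0.55 (log2) did not pass (limma, adjusted p = 0.27). The ratio of Icam2 to Icam1 was 3.26, 10.5 and 6.19 in Apln+ EC, against 0.815, 0.55 and 0.859 in diaphysis EC, with no overlap. Relative to Cdh5, Icam2 was at 5.6 to 6.96 in Apln+ EC and 2.88 to 3.27 in diaphysis EC. Madcam1 had 0, 1 and 4 reads in Apln+ EC, against 33, 58 and 96 reads in diaphysis EC (2.4, 3.58 and 6.28 FPKM), and fell (-2.12 ± 0.29 on the log2(FPKM + 1) scale, adjusted p = 0.0096).

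**Figure D3:**
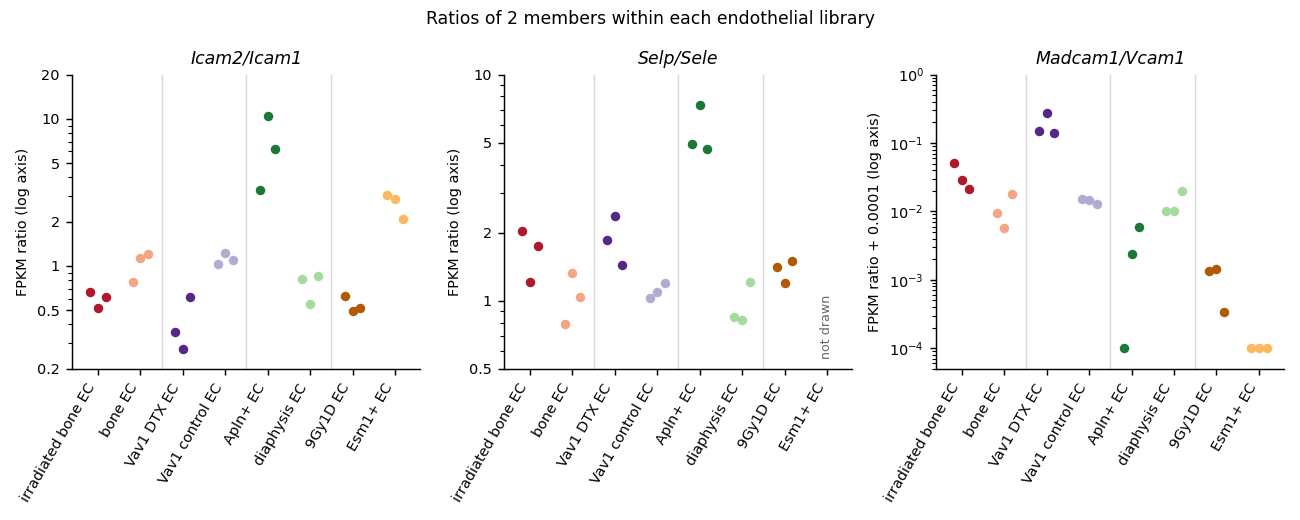
Ratio of the FPKM of 2 members within each endothelial library (points, log axes), which is free of the scaling of the library; ratios of 0 sit at the bottom of the right panel, and Selp/Sele is not drawn for Esm1+ EC because 1 library had no Sele read. Icam2/Icam1 is above 2 only in Apln+ EC and Esm1+ EC, Selp/Sele is 4.7 to 7.35 in Apln+ EC, and Madcam1/Vcam1 is 0.139 to 0.2696 in Vav1 DTX EC.

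Selplg was at 253, 114 and 108 FPKM in Apln+ EC, against 303, 270.1 and 284 FPKM in diaphysis EC. All Apln+ libraries were lower, but the difference of -0.96 ± 0.34 (log2) did not pass (limma, adjusted p = 0.17). Apln+ EC replicate 1 had the most Selplg and the least Cdh5 of its group, at 14.2 FPKM where the other 2 had 52.1 and 45.0 FPKM, and its pan-leukocyte genes summed to 7037 FPKM where theirs summed to 2868 and 2607 FPKM. In diaphysis EC, Cdh5 was at 23.01, 25.9 and 34.05 FPKM and the pan-leukocyte sum at 4274 to 4926 FPKM.

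Without Apln+ EC replicate 1 all 7 members were called: Sele (-4.14, limma, adjusted p = 0.00014), Selp (-1.79, 0.0019), Vcam1 (-2.92, 0.00023), Icam1 (-1.54, 0.0061), Madcam1 (-2.04, 0.0029) and Selplg (-1.35, 0.00028) fell and Icam2 rose (1.89, 0.00075). Calls over all 11889 genes grew as well, to 2034 higher and 1955 lower from 338 and 552 with every library. The Selp call was lost without Apln+ EC replicate 2 (adjusted p = 0.1) or diaphysis EC replicate 1, 2 or 3 (0.11, 0.16 and 0.17), and that of Icam1 without the same libraries (0.097, 0.052, 0.12 and 0.12). The Madcam1 call was lost without diaphysis EC replicate 2 (0.053), and with pan-endothelial scaling Vcam1 (-2.97, adjusted p = 0.15) and Icam1 (-2.07, 0.16) were not called.

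Per Cdh5, Sele (-4.73 ± 0.47, limma, adjusted p = 0.0048), Selp (-2.59 ± 0.41, 0.016) and Madcam1 (-2.26 ± 0.30, 0.0084) fell, where 1.74% of all genes were called lower and 1.24% higher. Vcam1 (-2.89 ± 0.72, 0.094), Icam1 (-1.99 ± 0.50, 0.096), Icam2 (1.0 ± 0.38, 0.37) and Selplg (-1.19 ± 0.80, adjusted p of 1) were not called. Without Apln+ EC replicate 1 all of them were called per Cdh5, Icam2 at 1.07 (0.0014), Vcam1 at -3.73 (4e-10), Icam1 at -2.35 (6.4e-07) and Selplg at -2.17 (5.5e-07). In that fit 518 of 11889 genes were called higher and 6607 lower, with a median log2 difference of -0.68 over all genes. The falls of members there stand against a large share. Without another library some calls per Cdh5 were lost: Selp without Apln+ EC replicate 2 or 3 (0.068 and 0.06) or diaphysis EC replicate 1, 2 or 3 (0.12, 0.15 and 0.11), Madcam1 without the same diaphysis libraries (0.056, 0.071 and 0.05) and Sele without diaphysis EC replicate 2 (0.058).

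Few of the pathway genes were called between Apln+ EC and diaphysis EC, where 2.84% of all genes were called higher and 4.64% lower. Cd34, a carrier of selectin ligands and a marker of capillary endothelium, rose (479 ± 258 FPKM in Apln+ EC, 24.3 ± 4.06 FPKM in diaphysis EC), and Chst2 fell (9.22 ± 5.84 and 42.3 ± 6.85 FPKM), 1 gene in each direction of 16. Of 16 NF-kappaB, IRF and STAT genes none rose and 2 fell, Irf8 (-1.94 ± 0.26) and Irf1 (-0.85 ± 0.15), with a median of -0.34 beside 0.04 over all genes. Of 13 genes of TNF, IL-1 and lymphotoxin signals 1 fell, Il1r1 (-1.75 ± 0.16), an IL-1 receptor. None of 8 integrin genes was called, Mcam was the 1 of 11 junctional genes that rose, and of 8 granule genes Plat rose and F8 fell.

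The 9Gy1D EC against Esm1+ EC comparison sets irradiated endothelium against cells marked by Esm1, and irradiation, genotype and tamoxifen cannot be told apart. Sele, Selp, Vcam1 and Icam1 were far higher in 9Gy1D EC, Icam2 did not pass the test, and Selplg was lower. Of 6 members tested 4 rose and 1 fell (limma), where 20.6% of all genes were called higher and 23.1% lower.

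Sele was at 47.0, 128.5 and 71.8 FPKM in 9Gy1D EC, against 4.96, 6.51 and 0 FPKM in Esm1+ EC. The third Esm1+ library had no Sele read where the first and second had 101 and 145, and the difference was 4.44 ± 0.76 (log2; limma, adjusted p = 0.0034), or 3.52 without that library. Selp was at 66.5, 154 and 108 FPKM in 9Gy1D EC, against 7.38, 6.78 and 4.43 FPKM in Esm1+ EC, a difference of 3.88 ± 0.31 (adjusted p = 0.00019). The megakaryocyte and platelet genes summed to 60.3 to 774 FPKM in 9Gy1D EC, against 15.6 to 35.9 FPKM in Esm1+ EC. Within 9Gy1D EC, replicate 2 had the lowest such sum, the highest pan-endothelial sum (6659 FPKM) and the highest Selp. The part of platelet transcripts in the Selp difference was not tested.

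Vcam1 was at 392, 797 and 487 FPKM in 9Gy1D EC, against 39.8, 41.7 and 28.9 FPKM in Esm1+ EC. The groups did not overlap, and the difference was 3.84 ± 0.27 (log2; limma, adjusted p = 0.00012), the largest for Vcam1 among the 4 endothelial comparisons made within a table. Icam1 was at 126, 222 and 187 FPKM in 9Gy1D EC, against 25.6, 26.1 and 22.2 FPKM in Esm1+ EC, a difference of 2.77 ± 0.21 (adjusted p = 0.00016). The stromal genes summed to 164.5 to 220.2 FPKM in 9Gy1D EC, against 16.6 to 43.9 FPKM in Esm1+ EC, the monocyte and macrophage genes to 802.5 to 1453 FPKM, against 1650 to 1811 FPKM, and the sinusoidal genes to 334 to 787.5 FPKM, against 41.7 to 68.2 FPKM. The ratio of Vcam1 to the stromal gene Cxcl12 was 4.75 to 7.14 in 9Gy1D EC and 1.96 to 5.27 in Esm1+ EC, and the part of stromal transcripts was not tested.

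Icam2 was at 79.1, 109 and 97.3 FPKM in 9Gy1D EC, against 77.9, 74.4 and 46.4 FPKM in Esm1+ EC. The ranges just failed to overlap, and the difference of 0.54 ± 0.22 (log2) did not pass (limma, adjusted p = 0.089) and was -1.01 (adjusted p = 0.011) with libraries scaled to their mean pan-endothelial level. The ratio of Icam2 to Icam1 was 0.627, 0.491 and 0.521 in 9Gy1D EC, against 3.04, 2.85 and 2.09 in Esm1+ EC. Madcam1 had 4, 10 and 1 reads in 9Gy1D EC and none in any Esm1+ EC library, where 3 reads would be 0.276 to 0.302 FPKM. Against a floor of 3 reads over the Esm1+ group Madcam1 was at least 5.92-fold higher in 9Gy1D EC, counting error aside, and both levels were too low for the test.

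Both 9 Gy groups had more Sele, Selp, Vcam1 and Icam1 than the groups they were tested against. Such levels were not particular to them. Untreated diaphysis EC averaged 88.7 FPKM of Sele and 84.2 FPKM of Selp, beside 82.45 and 109 FPKM in 9Gy1D EC. Per Cdh5, irradiated bone EC averaged 0.663 for Sele and 1.24 for Icam1, below diaphysis EC (3.29 and 4.25). The 9 Gy groups differed from each other in Madcam1. Madcam1 reached 25.8 to 45.3 FPKM in irradiated bone EC and 0.114 to 1.08 FPKM in 9Gy1D EC, and its ratio to Vcam1 within a library was 0.021 to 0.0514 and 0.000235 to 0.00135. These groups stand in different tables and were not tested against each other.

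Selplg was at 277, 169 and 135 FPKM in 9Gy1D EC, against 400.3, 387 and 338 FPKM in Esm1+ EC. The groups did not overlap, and Selplg fell by 1.01 ± 0.26 on the log2 scale (limma, adjusted p = 0.016). The call was lost without 9Gy1D EC replicate 2 (0.059), without Esm1+ EC replicate 1 (0.056) or 2 (0.053), and with those Esm1+ replicates averaged into 1 library (-0.98, 0.055). The pan-leukocyte genes summed to 2428 to 3941 FPKM in 9Gy1D EC, against 5918 to 5991 FPKM in Esm1+ EC, and the ratio of Selplg to Ptprc was 3.58 to 3.73, against 3.99 to 4.83.

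Cdh5 was at 45.1, 65.3 and 73.2 FPKM in 9Gy1D EC and 20.6, 19.5 and 14.1 FPKM in Esm1+ EC, a rise of 1.69 ± 0.22 (log2; limma, adjusted p = 0.0011). Per Cdh5, Sele (3.16 ± 0.73), Selp (2.24 ± 0.29), Vcam1 (2.11 ± 0.32) and Icam1 (1.05 ± 0.29) rose, and Icam2 (-1.19 ± 0.29) and Selplg (-2.76 ± 0.42) fell, with adjusted p of at most 0.0051. On this scale 3.35% of all genes were called higher and 79.3% lower, so the 4 rises stand against a small share and the 2 falls against a large one. Sele per Cdh5 was at 2.06 without Esm1+ EC replicate 3, 3.91 without Esm1+ EC replicate 2 and 3.79 with replicates 1 and 2 averaged.

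In 9Gy1D EC against Esm1+ EC, 20.6% of all genes were called higher and 23.1% lower (limma), and the list counts stand beside these shares. Of 10 junctional genes tested, 8 rose and none fell, and their median was 1.45 beside 0.00 over all genes, with Jam2 at 2.47 ± 0.22 (log2). The pan-endothelial genes summed to 4565 to 6659 FPKM in 9Gy1D EC, against 1217 to 2339 FPKM in Esm1+ EC, and their part in these counts was not tested. Of 9 granule genes 6 rose and 1 fell, among them the platelet genes Ppbp (268 ± 226 FPKM in 9Gy1D EC, 1.53 ± 0.424 FPKM in Esm1+ EC) and Pf4 (97.1 ± 57.2 and 8.44 ± 10.2 FPKM) and the endothelial gene F8 (33.2 ± 8.64 and 1.22 ± 0.438 FPKM). Of 16 regulators 4 rose and 3 fell, with Nr2f2 (1.84 ± 0.19) and Irf1 (1.13 ± 0.19) higher and Tnfaip3, an inhibitor of NF-kappaB, lower (-1.16 ± 0.22). Of 13 genes of TNF, IL-1 and lymphotoxin signals 5 rose and 2 fell, of 16 genes of selectin ligands 4 rose and 3 fell, with Chst2 in front (3.36 ± 0.42), and of 9 integrin genes 1 rose and 4 fell.

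Bone EC against LSK, Lin- and BMC asks which of the molecules mark the endothelium in untreated marrow. The 3 comparisons share the bone EC libraries with each other and with the irradiation comparison. Against LSK, 5 members were higher and Icam1 was lower, of 6 tested (limma; 29.5% of all genes were called higher and 30.6% lower). Against Lin-, 6 of 6 were higher (35.8% higher and 30.8% lower over all genes), and against BMC 5 of 6 were higher and none lower (35.8% and 34.6%). BMC and Lin- were prepared with another library kit than bone EC, and kit and cell type cannot be told apart there, whereas LSK and bone EC share the kit.

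Sele, at 27.1 to 44.6 FPKM in bone EC, was at 3.15, 1.49 and 2.83 FPKM in LSK, 2.36, 1.42 and 0.518 FPKM in Lin- and 0.0791, 0.15 and 0 FPKM in BMC, where 3 reads in all stood behind it. Its log2 differences were 3.5 ± 0.26, 4.06 ± 0.33 and 5.17 ± 0.20 (limma, largest adjusted p = 3.2e-05). Selp, at 34.7 to 46.3 FPKM in bone EC, was at 5.14, 5.08 and 5.51 FPKM in LSK, 5.54, 7.59 and 6.94 FPKM in Lin- and 0.992, 0.792 and 0.697 FPKM in BMC. The differences were 2.67 ± 0.14, 2.37 ± 0.18 and 4.44 ± 0.15 (largest adjusted p = 2.5e-05). Both selectins were thus far above all blood groups, and Selp was also readable in LSK and Lin-.

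Vcam1 had the largest difference of the members against LSK, at 5.88 ± 0.14 (log2; limma, adjusted p = 1.2e-07): it was at 165 to 209.7 FPKM in bone EC and 2.31, 1.91 and 1.94 FPKM in LSK. In Lin- it was at 40.2, 12.2 and 48.7 FPKM and in BMC at 19.9, 17.2 and 20.3 FPKM, with differences of 2.58 ± 0.47 and 3.16 ± 0.13 to bone EC. The stromal genes summed to 211, 76.5 and 348 FPKM in the same 3 Lin- libraries, 139 to 305.5 FPKM in bone EC and 3.48 to 6.64 FPKM in BMC. The ratio of Vcam1 to Cxcl12 was 1.178 to 2.31 in bone EC, 0.271 to 0.364 in Lin- and 11.2 to 26.9 in BMC. Without Lin- replicate 2 the Vcam1 difference to Lin- was 1.99 (adjusted p = 0.00036).

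Icam1 was higher in LSK than in bone EC, at 150.1, 131 and 278 FPKM in LSK, against 73.0, 56.8 and 56.3 FPKM in bone EC. Every LSK library was above every bone EC library, and bone EC was lower by -1.50 ± 0.27 (log2; limma, adjusted p = 0.0017). In Lin- it was at 21.3, 24.7 and 14.0 FPKM and in BMC at 16.5, 19.9 and 18.3 FPKM, below bone EC in both (1.61 ± 0.23 and 1.70 ± 0.14). Pan-endothelial genes summed to 110.2 to 112 FPKM in LSK, against 1981 to 2615 FPKM in bone EC, and Cdh5 was at 0.0906 to 0.329 FPKM in LSK. The source of the Icam1 transcripts in LSK was not tested. Icam2 was at 56.4 to 67.7 FPKM in bone EC and at 11.7 to 17.3 FPKM in all 9 libraries of LSK, Lin- and BMC, with differences of 1.98 ± 0.12, 2.07 ± 0.18 and 2.1 ± 0.11.

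Madcam1 had 8, 4 and 19 reads in bone EC and 2, 1 and 1 reads in all of LSK, Lin- and BMC, too few for the test. Selplg was at 187, 167 and 152 FPKM in bone EC, 125, 121 and 97.8 FPKM in LSK, 32.2, 24.0 and 13.5 FPKM in Lin- and 181, 149 and 116 FPKM in BMC. Bone EC was above LSK (0.56 ± 0.14, log2; limma, adjusted p = 0.01; -0.14 with TPM, adjusted p = 0.47, and 0.19 with limma-voom on recovered reads, adjusted p = 0.25) and above Lin- (2.88 ± 0.30, adjusted p = 0.00011), and overlapped with BMC (0.20 ± 0.18, adjusted p = 0.34). The pan-leukocyte genes summed to 3041 to 3451 FPKM in bone EC and 3791 to 4905 FPKM in BMC. In LSK they summed to 877 to 1017 FPKM and in Lin- to 297 to 425 FPKM. The part of leukocyte transcripts in these Selplg differences was not tested.

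**Figure D4:**
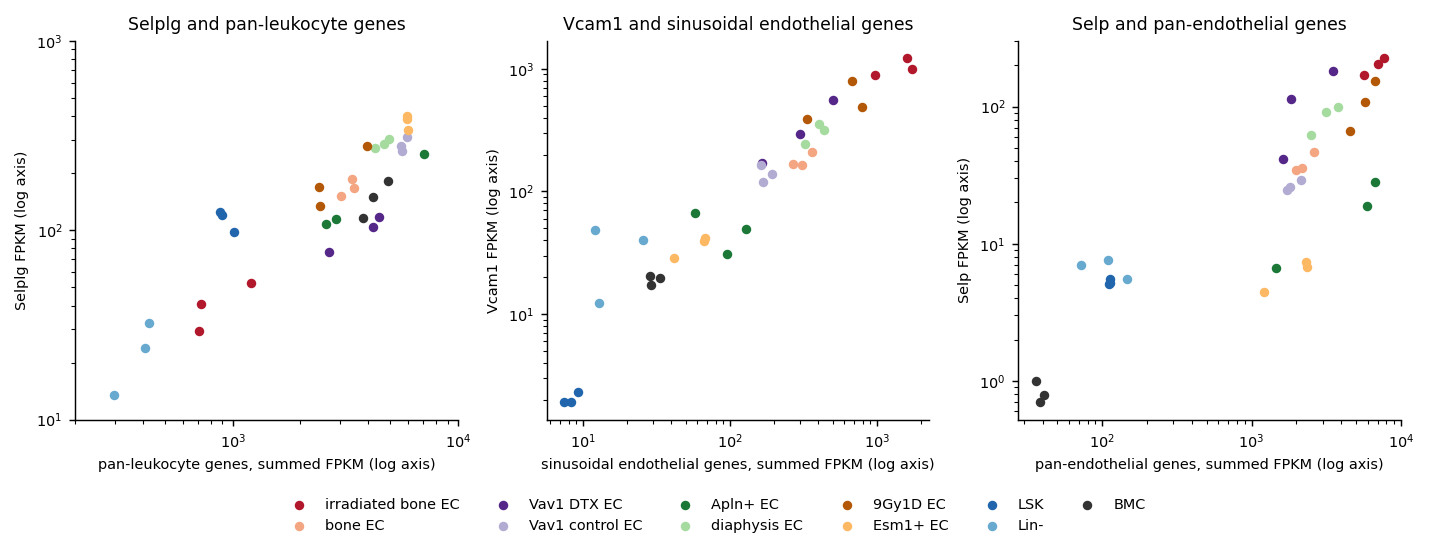
FPKM of Selplg, Vcam1 and Selp against the summed FPKM of the 10 pan-leukocyte, 8 sinusoidal and 18 pan-endothelial genes in each of the 33 libraries (points, log axes), coloured by group, tables normalized separately. Irradiated bone EC (29.3 to 52.8 FPKM of Selplg) lies at the low end of the leukocyte axis among endothelial groups, and Selp is lowest among endothelial groups in Esm1+ EC (4.43 to 7.38 FPKM) and next in Apln+ EC (6.67 to 28.3 FPKM), which overlaps with Esm1+ EC and with Vav1 control EC (24.5 to 29.0 FPKM).

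Lin- against BMC gave calls for 2 of 5 members tested, Selp higher and Selplg lower, where 29.1% of all genes were called higher and 28.4% lower (limma). Selp was at 5.54, 7.59 and 6.94 FPKM in Lin- and below 1 FPKM in every BMC library (2.07 ± 0.16, log2, adjusted p = 8.1e-05), while the megakaryocyte and platelet genes summed to 750.4 to 1289 FPKM in Lin- and 15.98 to 29.7 FPKM in BMC. Their part was not tested. Selplg was at 13.5 to 32.2 FPKM in Lin- and 116 to 181 FPKM in BMC (-2.68 ± 0.32, adjusted p = 0.00053), and the pan-leukocyte genes summed to 297 to 425 FPKM, against 3791 to 4905 FPKM. Vcam1 (0.58 ± 0.48), Icam1 (0.09 ± 0.21) and Icam2 (0.03 ± 0.16) were not called, although Vcam1 was without Lin- replicate 2 (1.17, adjusted p = 0.0021).

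Relative to the 8 endothelial groups taken side by side, the ratio to Cdh5 changed the order. Sele per Cdh5 averaged most in diaphysis EC (3.29 ± 0.945) and Selp in Vav1 DTX EC (3.38 ± 1.54) and diaphysis EC (3.04 ± 0.437), whose ranges overlapped. Vcam1 per Cdh5 averaged 11.2 ± 2.32 in diaphysis EC, 10.2 ± 2.53 in Vav1 DTX EC and 9.18 ± 2.8 in 9Gy1D EC, all overlapping, and 2.04 ± 0.102 in Esm1+ EC. Icam2 per Cdh5 was highest in Apln+ EC (6.18 ± 0.707), above Esm1+ EC (3.63 ± 0.29) and diaphysis EC (3.06 ± 0.198) with no overlap between neighbours, and lowest in irradiated bone EC (0.742 ± 0.0756), which overlapped with bone EC (0.782 ± 0.086). Selplg per Cdh5 was at 21.1 ± 2.55 in Esm1+ EC and 0.216 ± 0.0736 in irradiated bone EC.

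Over all 33 libraries, Sele and Selp had the closest pattern of any pair of members (Pearson r = 0.954 of log2(FPKM + 1), a description over libraries that share groups and tables). Vcam1 followed Selp (0.874) and Sele (0.861). Icam1 followed Selp (0.758), Sele (0.754) and Madcam1 (0.660), and Vcam1 (0.462) and Icam2 (0.387) less closely. Selplg lay between -0.244 and 0.213 with every other member. Among 10389 genes, those most like Sele included Rgs4 (0.967) and Ak5 (0.956), and those most like Selp were Id4 (0.977), Angptl4 (0.976) and Gmpr (0.966). For Vcam1 they were Oaf (0.954), Darc (0.951) and Mrc1 (0.934), for Icam1 Cx3cl1 (0.894), Cdkn1a (0.880) and Elovl5 (0.876), and for Icam2 Myzap (0.973), Enho (0.970) and Bik (0.969). For Madcam1 they were Fcrlb (0.928), Crybb3 (0.880) and Cxcl1 (0.869), and for Selplg Lsp1 (0.950), Tpd52 (0.946) and Pqlc3 (0.930).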

How the data were processed

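RNA was prepared from cells of crushed, collagenase-treated bone sorted by flow cytometry, with the SMART-Seq v4 and Nextera XT kits, or with TruSeq Stranded Total RNA for BMC and Lin-, per the labels' protocols. The authors deposited FPKM values per gene in 4 tables. The submitters' processing notes name the build mm10 and, with no role or order, DESeq2 1.18.1, TopHat2 2.1.1, bcl2fastq 2.19.1.403 and HTSeq 0.6.1, and the annotation is not given in the sources used here. The steps of the FPKM values gave whole reads for 100% of non-zero values (within 0.005), and reads and depths come from these. Tests were run with limma 3.58.1 (R 4.3.3, eBayes with trend) on log2(FPKM + 1), within a table, on genes that reached 1 FPKM in 3 or more of the 6 libraries. P-values were adjusted by Benjamini-Hochberg over all genes tested and called below 0.05. With the pseudocount of 1, differences understate the change of low genes. Per Cdh5 means that each library was scaled to its own Cdh5. On that scale limma gave Cdh5, whose ratio has no spread, an SE of 0.19 to 0.55. P-values per Cdh5 therefore lean on the spread of all genes, and very small ones do not measure the spread of a gene alone. The fit was tested on simulated data. The 7 genes and all lists were chosen with earlier results of these data known. Genes named from a list are among the up to 3 largest called differences in each direction, and some genes that this rule names are not reported here.

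Each of these was tried as an alternative: scaling by median-of-ratios, to TPM or to the pan-endothelial mean; a pseudocount of 0.1 or 5; dropping the filter or asking for 5 FPKM on average; limma-voom on the recovered reads; a fit to the whole table, with a replicate block or with no trend; and leaving out each library. Averaging Esm1+ EC replicates 1 and 2 was added after the data were seen.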

Additional observations from a re-analysis of the deposited data

How the results depend on the processing

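Members called changed little in most settings: of the counts of called members, 150 stayed within 1.5 times, 4 were larger and 20 smaller. With pan-endothelial scaling the count was 4 in irradiated bone EC against bone EC (7 as reported) and 3 in Apln+ EC against diaphysis EC (5 as reported), and per Cdh5 with that denominator 4 in Vav1 DTX EC (2 as reported). Without a filter it was 2 in Vav1 DTX EC (5 as reported), and with a mean of at least 5 FPKM it was 3 in Apln+ EC and 1 in Lin- against BMC (2 as reported). Leaving out 1 library gave 7 in irradiated bone EC, 2 to 6 in Vav1 DTX EC, 2 to 7 in Apln+ EC, 4 to 5 in 9Gy1D EC, 6 against LSK and Lin-, 5 against BMC and 2 to 3 for Lin- against BMC, and per Cdh5 4 to 5, 1 to 4, 0 to 7 and 6 in the 4 endothelial comparisons. Same-numbered replicates did not pair (correlations of -0.22 to 0.33); with the replicate block 3 members were called in Vav1 DTX EC and 5 per Cdh5 in Apln+ EC.

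Direction turned for Icam2 with pan-endothelial scaling in irradiated bone EC (-0.41) and 9Gy1D EC (-1.01), and without Vav1 DTX EC replicate 2 (-0.11, up to 0.62 without another library). Icam2 per Cdh5 turned without bone EC replicate 1 (0.01, down to -0.16 without another library) and, in Vav1 DTX EC, with the pan-endothelial denominator (0.11), without Vav1 DTX EC replicate 1 (0.07) and without Vav1 control EC replicate 1 (0.11). Selplg in bone EC against LSK turned with TPM (-0.14). In Lin- against BMC, Icam2 turned with median-of-ratios (-0.02) and without Lin- replicate 1 (-0.11, up to 0.16 without another library), and Icam1 without Lin- replicate 2 (-0.07, up to 0.32). The causes were not tested. The median log2 difference of all genes tested was -1.25 with pan-endothelial scaling in irradiated bone EC (0.06 as reported) and -1.31 in 9Gy1D EC (0.00 as reported), and with TPM it was -0.91 over 19237 genes in bone EC against LSK (-0.05 over 14321 genes as reported). Over all genes, irradiated bone EC had 2938 higher and 2525 lower calls, 4167 and 2033 with TPM, and 213 and 10522 with pan-endothelial scaling. Vav1 DTX EC had 1317 and 1748, 2926 and 1424 with TPM, and 2418 and 2364 without its replicate 2. Apln+ EC had 338 and 552, and 2034 and 1955 without its replicate 1. The 9Gy1D EC had 2422 and 2711, 3787 and 2062 with TPM, and 405 and 8277 with pan-endothelial scaling. Bone EC against LSK had 4219 and 4389, and 2427 and 11383 with TPM. Depth limits Madcam1 most, with 0 to 19 reads a library in bone EC, 9Gy1D EC, Apln+ EC, Esm1+ EC and the blood groups.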
